A study of Rattus norvegicus with 24 samples.

Results

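The nuclear genes of the mitochondrial respiratory chain and ATP synthase were followed in microvessels of the rat brain cortex after 2 operations that cause acute liver failure. Members were the array probes that map to a single gene symbol beginning with Nduf, Sdh, Uqcr, Cox or Atp5, the prefixes of complexes I, II, III, IV and V. The rule gave 99 genes of the 14218 named by a single symbol, on 115 of the 31099 probes of the table: 46 probes for complex I, 10 for complex II, 8 for complex III, 31 for complex IV and 20 for complex V, assembly factors included. A further 7 probes that carry a matching symbol together with another gene were left out. Among the complex IV probes counted is that of Cox6c-ps1, a pseudogene by its symbol.

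The 24 arrays fall into 3 groups of 8. In the group called HAL, rats received a portocaval anastomosis, which diverts portal blood past the liver, and the hepatic artery was ligated 24 h later. In the group called HEP, the anastomosis was followed after 24 h by removal of the whole liver. Sham rats had a simulated operation in both steps, and all rats were killed by decapitation 8 to 12 h after the last step, before cortical microvessels were isolated. HAL and HEP share the anastomosis, so neither separates it from the second operation. Whether every array comes from a rat of its own is not in the labels, and the tests weigh differences against the variation among arrays, which may be technical. The sources used here do not give strain, sex or age.

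Complexes I and II pass electrons from NADH and succinate to ubiquinone, complex III passes them to cytochrome c, and complex IV passes them to oxygen. Proton pumping by complexes I, III and IV drives ATP synthase, also called complex V. Brain capillary endothelium, which forms the blood-brain barrier, has long been described as rich in mitochondria. The subunits encoded by mitochondrial DNA carry other symbols and were outside the rule.

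Of each log2 signal, the table as provided keeps the decimals alone, so what could be read of a member was limited in a particular way. A cell keeps 9 decimals where the log2 signal is below 10 and 8 where it is 10 or above, and this told on which side of 10 a probe lay. Differences between arrays were read by placing the decimals around a circle, within 0.5 of the probe's own centre. A probe was read where its decimals clustered, as measured by a resultant length of at least 0.5 (1 for identical decimals and 0 for evenly scattered ones). This held for 62 of the 115 member probes, of 57 genes, or 53.9%, against 43.5% of all probes. A difference is seen only up to whole units: one that nears a whole unit is read near 0, and a change close to 0.5 in a single group scatters the decimals and can remove the probe. The values below are therefore log2 differences among probes whose decimals stayed together, and say nothing of the 53 members that were not read.

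Members were often bright. Their log2 signal was at 10 or above on the arrays for 24 of 115 probes, or 20.9%, against 6.22% of all probes, and another 17 probes lay near 10. The share at 10 or above was 19.6% in complex I, 20% in complex II, 25% in complex III, 16.1% in complex IV and 30.0% in complex V. Among the read members at this level were Ndufv1, which holds the NADH site of complex I, Sdha, the flavoprotein of complex II, and Atp5f1b, the catalytic beta subunit of ATP synthase. Atp5f1a and Atp5f1c, the alpha and gamma subunits, and the core protein Uqcrc1 were also at 10 or above but were not read at the chosen limit.

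**Figure D1:**
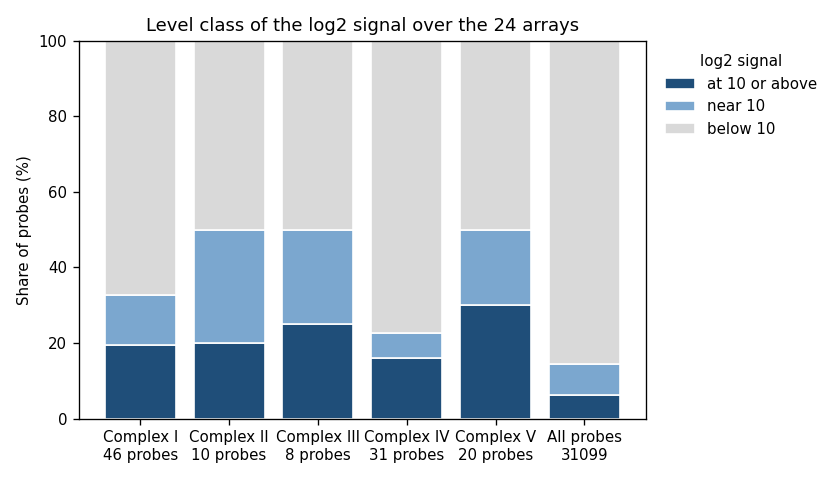
Stacked bars give the share of probes (%, vertical axis) whose log2 signal was at 10 or above, near 10 or below 10 on the 24 arrays, for each complex and for all 31099 probes. Complex V has the highest share at 10 or above, 30.0%, against 6.22% of all probes.

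Promoters of the members held some sequence motifs, which the rule did not use, more often than those of array genes. RefSeq promoters on GRCr8, from 250 bases before the annotated start to 50 after it, were matched for 90 of the 99 genes. The motif of NRF1, a nuclear activator of respiratory genes, searched as GCGCA and GCGC with any 1 base between them, was present on one strand or the other in 19 of 90 (21.1%), against 7.88% of the promoters of genes on the array and 4.25% of all 33469. CCGGAAG, a motif bound by ETS factors such as NRF2/GABP, was present in 28 (31.1%), against 14.2% of array genes and 8.75% of all. AANATGGCG, a YY1 motif, was present in 21 (23.3%), against 5.02% and 3.01%. An ETS match can share its last letters, AAG, with the start of a YY1 match. At least 1 of these motifs stood in 55 of 90 member promoters (61.1%), against 23.7% of array genes and 14.3% of all. Median GC content was 56.0% in member promoters and 59.7% in those of array genes. A match is a description of letters, not a measured binding site.

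The following stretches show the 120 bases before the start of the 4 core subunit genes of complex II and of a ubiquitous and a muscle form among complex IV genes, since the members with the smallest p-values below lie among them. Capitals mark the motif matches that lie wholly within the stretch (the NRF1 motif in Sdha, CCGGAAG or its reverse complement in the others). They lie at chr1:30764433-30764552, plus strand for Sdha, chr5:158547814-158547933, plus strand for Sdhb, chr13:86098026-86098145, minus strand for Sdhc, chr8:59850642-59850761, minus strand for Sdhd, chr1:213833624-213833743, minus strand for Cox8a and chr1:192219717-192219836, minus strand for Cox6a2, all on GRCr8 and written 5′ to 3′ on the gene's strand.
Sdha: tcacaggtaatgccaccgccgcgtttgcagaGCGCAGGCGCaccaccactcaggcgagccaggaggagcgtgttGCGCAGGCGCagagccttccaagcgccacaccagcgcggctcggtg
Sdhb: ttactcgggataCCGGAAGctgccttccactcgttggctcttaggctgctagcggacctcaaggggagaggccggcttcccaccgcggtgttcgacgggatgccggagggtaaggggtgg
Sdhc: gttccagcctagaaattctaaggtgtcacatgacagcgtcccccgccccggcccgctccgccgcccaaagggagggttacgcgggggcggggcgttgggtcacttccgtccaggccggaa
Sdhd: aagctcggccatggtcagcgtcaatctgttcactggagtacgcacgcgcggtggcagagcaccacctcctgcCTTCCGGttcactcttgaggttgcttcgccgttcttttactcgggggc
Cox8a: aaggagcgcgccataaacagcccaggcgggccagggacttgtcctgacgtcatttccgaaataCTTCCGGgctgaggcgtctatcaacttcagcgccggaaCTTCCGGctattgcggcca
Cox6a2: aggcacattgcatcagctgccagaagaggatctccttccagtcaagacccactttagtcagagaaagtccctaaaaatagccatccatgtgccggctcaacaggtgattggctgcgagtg
Sdhc and Cox6a2 held none of the 3 motifs in these stretches, and Sdha held 2 copies of the NRF1 motif. Cox8a held 2 ETS matches, and Sdhb and Sdhd 1 each.

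No member passed the test in any comparison. With limma over all probes read and Benjamini-Hochberg adjustment, 0 of 62 members were called at an adjusted p of 0.05 in HAL against Sham, where 0.0665% of the 13542 probes tested were called (9 probes). In HEP against Sham the count was also 0 of 62, where 0.133% were called (18 probes), and in HEP against HAL it was 0 of 62, where 0% were called. At an unadjusted p under 0.05 there were 3 members in HAL (4.84%), against 14.1% of all probes, and 1 in HEP (1.61%), against 8.8%. In HEP against HAL there were 6 members (9.68%), against 7.33%. The background calls are themselves few and depend on single arrays, so the adjusted counts alone say little about the members.

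The sizes of the differences were small. The median member difference was -0.015 in HAL and 0.008 in HEP, against 0.026 and 0.013 over all probes tested. It was positive in 26 of 62 members in HAL and in 35 of 62 in HEP, against 8357 and 7626 of all 13542 probes. These signs turned with single arrays: without Sham array 6 the HAL median was 0.009 with 37 of 62 positive, without HAL array 1 it was 0.001, and the HEP median was -0.006 without Sham array 2, with 26 of 62 positive, and -0.002 without HEP array 3 or HEP array 5. Over all single arrays left out, 22 to 37 members were positive in HAL and 26 to 40 in HEP, and the counts were 22 and 29 once the median of every array was set to zero. Differences ran from -0.17 (Sdhd) to 0.23 (Cox6a2) in HAL and from -0.14 (Cox20) to 0.16 (Sdhc) in HEP. A difference beyond 0.1 in size was read for 11 members in HAL (17.7%), against 29.3% of all probes, and for 4 in HEP (6.45%), against 21.6%. The 95% interval lay wholly within 0.25 of zero, a 1.19-fold change, for 49 of 62 members in HAL (79%, against 73.7% of all probes) and 55 of 62 in HEP (88.7%, against 79.8%). The widest intervals reached -0.33 and 0.37 in HAL and -0.32 and 0.29 in HEP. Within-group spread was close to that of other probes, with a median SD of 0.144 for members and 0.140 for all.

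**Figure D2:**
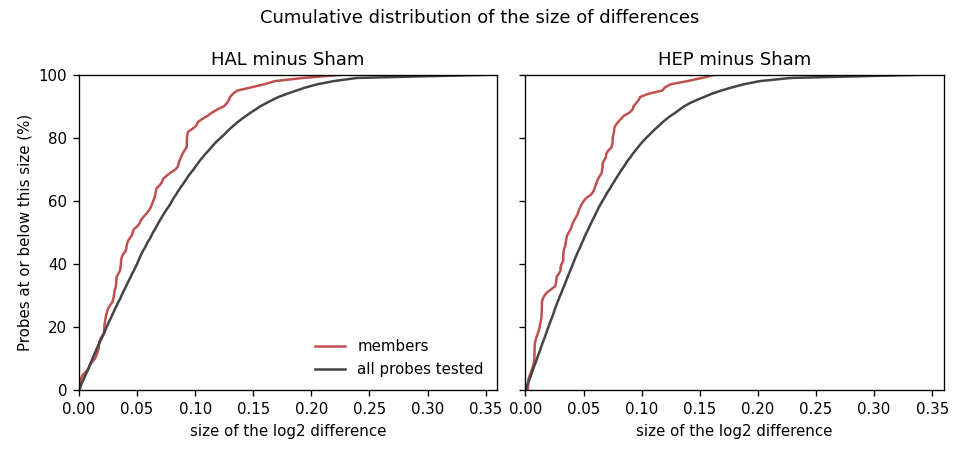
Cumulative share of probes (%, vertical axis) against the size of the log2 difference (horizontal axis) for the 62 members and for all 13542 probes tested, in HAL and in HEP against Sham. The member curve lies to the left over most of its length: differences beyond 0.1 make up 17.7% of members and 29.3% of all probes in HAL, and 6.45% and 21.6% in HEP.

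The members were also counted within level classes. Among probes at 10 or above, 1 of 18 members in HAL and 0 of 18 in HEP had an unadjusted p under 0.05, against 20.8% and 16.2% of all probes in that class. Below 10 the counts were 2 of 38 and 0 of 38, against 13.7% and 8.35%. Among probes near 10 they were 0 of 6 and 1 of 6, against 10.8% and 6.76%.

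Complex I takes electrons from NADH. Against Sham, limma gave none of its 24 read probes an unadjusted p under 0.05 (all probes: 14.1% in HAL, 8.8% in HEP). The median difference was -0.025 in HAL, with 8 probes positive and 16 negative, and 0.009 in HEP, with 14 positive and 10 negative. Ndufv1 gave -0.15, 0.03 and 0.12 as the lowest, median and highest deviation from the Sham mean on Sham arrays, -0.19, 0.00 and 0.14 on HAL arrays and -0.02, 0.08 and 0.20 on HEP arrays. The groups overlapped, and the differences were -0.01 in HAL (SE 0.058, 95% interval -0.13 to 0.11) and 0.08 in HEP (-0.03 to 0.20). The accessory subunit Ndufb7 had the smallest p of the complex in HAL, with -0.27, -0.12 and 0.04 on HAL arrays against -0.17, 0.07 and 0.13 on Sham arrays. Its difference was -0.13 (95% interval -0.26 to 0.01, limma adjusted p = 0.401), with 1 of 8 HAL arrays above the Sham mean. Ndufa4, first assigned to complex I and later to complex IV, was 0.09 in HAL and 0.06 in HEP, with intervals from -0.03 to 0.22 and from -0.06 to 0.19. The 2 probes of the assembly factor Ndufaf7 differed in sign in HAL, -0.04 and 0.05.

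Complex II oxidises succinate and is also an enzyme of the citrate cycle, and all 4 of its core genes were read. The difference in HEP was positive for 4 of 6 probes read, with a median of 0.062, and in HAL for 2 of 6, with a median of -0.018. Sdhc, a membrane anchor, gave -0.19, 0.02 and 0.18 on Sham arrays, -0.13, -0.04 and 0.14 on HAL arrays and -0.05, 0.19 and 0.29 on HEP arrays. HEP arrays were the highest, with 7 of 8 above the Sham mean, but the groups overlapped. The difference was 0.16 in HEP (95% interval 0.03 to 0.29, limma adjusted p = 0.396) and -0.02 in HAL (-0.15 to 0.11).

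Sdhd, the other membrane anchor, was lower on HAL arrays, at -0.31, -0.15 and -0.07, than on Sham arrays, at -0.24, 0.02 and 0.13, or HEP arrays, at -0.15, 0.04 and 0.22. No HAL array exceeded the Sham mean, although the ranges overlapped. Of the 8 Sham cells, 4 were shortened by lost zeros and placed nearest the probe's centre, against 1 in HAL and 0 in HEP. The difference was -0.17 in HAL (95% interval -0.30 to -0.05, limma adjusted p = 0.209) and 0.03 in HEP (-0.09 to 0.16). A second Sdhd probe, at 10 or above, had a resultant length of 0.33 and was not read, so this pattern rests on 1 probe.

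Sdhb, the iron-sulfur subunit, gave -0.29, 0.03 and 0.11 on Sham arrays, -0.30, 0.05 and 0.17 on HAL arrays and -0.04, 0.11 and 0.29 on HEP arrays. Its difference was 0.04 in HAL (95% interval -0.10 to 0.17) and 0.12 in HEP (-0.02 to 0.25). Sdha gave -0.42, 0.05 and 0.19 on Sham arrays, -0.39, -0.03 and 0.49 on HAL arrays and -0.01, 0.08 and 0.24 on HEP arrays. The HAL arrays were the most scattered, with an SD of 0.26 against 0.19 in Sham and 0.09 in HEP. The Sdha difference was -0.02 in HAL (-0.19 to 0.16) and 0.09 in HEP (-0.08 to 0.27). Without Sham array 3, the lowest for both genes, the difference in HEP was 0.032 for Sdha and 0.077 for Sdhb, and in HAL it was -0.078 and -0.005. Without HAL array 2 the Sdhb difference in HAL was 0.084.

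Sdhb and Sdhc lie near 10, where nine-digit cells can be read as 9 plus the decimals and eight-digit cells as 10 plus the decimals, with shorter cells left out. Read so, the difference in HEP was 0.223 for Sdhb and 0.154 for Sdhc, and in HAL it was -0.039 and 0.124, so that Sdhc in HAL and Sdhb in HAL changed sign. No member was called under this reading either, 0 of 17 in both comparisons, where 3.72% of 2526 probes near 10 were called in HAL and 2.18% in HEP.

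**Figure D3:**
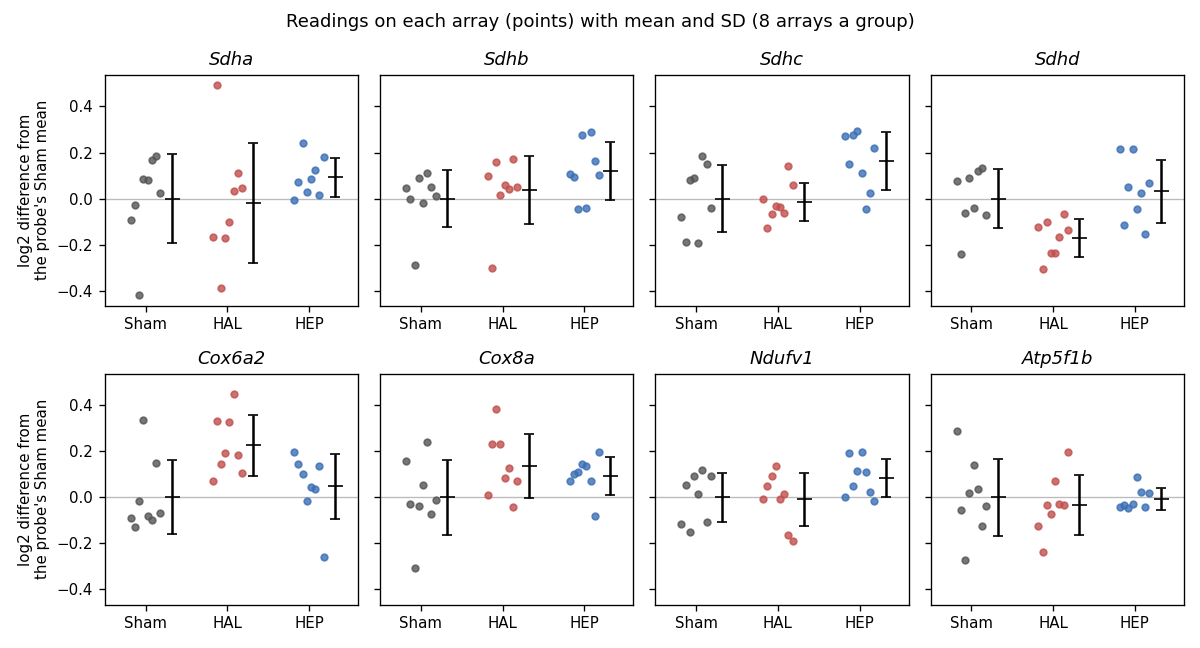
Points are the readings of 8 member probes on each array, as log2 differences from the probe's Sham mean (vertical axis), and bars are the mean and SD of the 8 arrays of each group. All 8 HAL arrays lie above the Sham mean for Cox6a2 and none does for Sdhd, and the groups overlap in every panel.

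Complex III, the cytochrome bc1 complex, was read through 2 of its 8 probes only. Uqcrc2, a core protein, gave -0.07, 0.00 and 0.07 on Sham arrays, -0.21, 0.01 and 0.11 on HAL arrays and -0.15, 0.10 and 0.37 on HEP arrays. The difference was -0.01 in HAL (95% interval -0.15 to 0.12) and 0.12 in HEP (-0.01 to 0.25, limma adjusted p = 0.611). Of the 8 HEP cells of this probe, 4 were shortened and placed nearest the probe's centre, against 0 in Sham and 1 in HAL. A second Uqcrc2 probe had a resultant length of 0.10 and was not read. The small subunit Uqcr11 was 0.06 in HAL (-0.11 to 0.24) and 0.05 in HEP (-0.12 to 0.23).

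Complex IV, cytochrome c oxidase, held the largest member difference in HAL. It was that of Cox6a2, whose probe lay below 10, at a level that the decimals do not give. Cox6a2, the heart and skeletal muscle form of subunit VIa, gave -0.13, -0.08 and 0.33 on Sham arrays, 0.07, 0.19 and 0.45 on HAL arrays and -0.26, 0.07 and 0.20 on HEP arrays. All 8 HAL arrays were above the Sham mean, and the ranges of the groups overlapped. As for Sdhd, 4 of the 8 Sham cells were shortened and placed nearest the probe's centre, against 1 in HAL and 1 in HEP. The group mean was 0.23 ± 0.13 (SD, n = 8) in HAL, 0.05 ± 0.14 (SD, n = 8) in HEP and, by definition, 0.00 in Sham with an SD of 0.16. The difference was 0.23 in HAL (95% interval 0.08 to 0.37, limma adjusted p = 0.143) and 0.05 in HEP (-0.09 to 0.19). With single arrays left out, the HEP difference ran from 0.027 to 0.096, and it was 0.092 without HEP array 8 and 0.096 without Sham array 4.

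A filter added after the data were seen asked instead that decimals cluster within each group, with a pooled resultant length of at least 0.65, so that probes shifted in a single group are kept. It left 10310 probes and 39 members. Under it Cox6a2 was the 1 member of 39 called in HAL, at a limma adjusted p of 0.0489, where 4.16% of all probes were called. Its adjusted p in the first fit was 0.143. The filter selects on the spread within groups, which the test also uses, so its adjusted p-values are not independent support. In HEP 0 of 39 members were called, where 2.19% of all probes were, and 1 of 39 had an unadjusted p under 0.05, against 13% of all. In HEP against HAL 0 of 39 were called, where 0.223% of all probes were, and 6 of 39 had an unadjusted p under 0.05, against 10.4%. In HAL 3 of 39 had an unadjusted p under 0.05, against 20% of all. The Cox6a2 call was kept in 7 of the 24 fits that left out a single array, with adjusted p from 0.0166 to 0.118 and differences from 0.194 to 0.273. Without Sham array 2 the member called was Sdhd, in place of Cox6a2 (adjusted p = 0.101).

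Reading each group around its own centre, which narrows the spread within groups by construction, gave more calls. In HAL 2 of 62 members were called, where 4.72% of 13537 probes were: Cox6a2 at 0.28 (limma adjusted p = 0.0103) and a probe of Cox15 at -0.26 (0.0276). In HEP it was 1 of 62, where 2.13% were: Sdhb at 0.21 (0.0498). In HEP against HAL it was 2 of 62, where 0.731% were: Sdhb at 0.30 (0.0102) and Sdhc at 0.24 (0.0472).

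Other forms of complex IV subunits were read beside Cox6a2. Cox8a, the widely expressed form of subunit VIII, gave -0.31, -0.02 and 0.24 on Sham arrays, -0.04, 0.11 and 0.38 on HAL arrays and -0.08, 0.10 and 0.19 on HEP arrays. Its difference was 0.14 in HAL (95% interval 0.00 to 0.27, limma adjusted p = 0.349) and 0.09 in HEP (-0.04 to 0.23). Cox8b, the muscle form, was 0.00 in HAL (-0.14 to 0.14) and 0.02 in HEP (-0.12 to 0.16). Cox7a1, the muscle form of subunit VIIa, was -0.06 in HAL and -0.05 in HEP, and Cox7a2l, which takes part in joining complexes III and IV, was 0.00 and -0.08.

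Cox20, an assembly factor of complex IV, had negative readings in both groups, with 1 of 8 arrays above the Sham mean in each. The difference was -0.16 in HAL (95% interval -0.33 to 0.01, limma adjusted p = 0.401) and -0.14 in HEP (-0.32 to 0.03, limma adjusted p = 0.65), and both comparisons use the same Sham arrays. Probes of 1 gene did not always give the same reading. The 3 probes of Cox11, a copper chaperone, gave 0.08, 0.04 and 0.00 in HAL, and 2 probes of Cox15, needed for heme A, gave 0.12 and -0.10. Cox6b1, a subunit on the side of the intermembrane space, was -0.03 in HAL and -0.07 in HEP, with intervals from -0.20 to 0.14 and from -0.24 to 0.10.

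ATP synthase had a median difference of 0.036 in HAL, with 7 of 12 probes positive, and of -0.001 in HEP, with 6 of 12 positive. Against Sham, limma gave none of the 12 an unadjusted p under 0.05 (all probes: 14.1% in HAL, 8.8% in HEP). Atp5f1b gave -0.27, -0.01 and 0.29 on Sham arrays, -0.24, -0.03 and 0.20 on HAL arrays and -0.04, -0.03 and 0.09 on HEP arrays. Its difference was -0.03 in HAL (95% interval -0.16 to 0.10) and -0.01 in HEP (-0.14 to 0.12), and the HEP arrays were the closest together, with an SD of 0.05 against 0.17 in Sham. Atp5pf, a part of the stalk called coupling factor F6, was lower on HAL arrays, at -0.23, -0.10 and 0.00 against -0.17, 0.01 and 0.17 in Sham. Its difference was -0.11 in HAL (-0.23 to 0.01, limma adjusted p = 0.406) and 0.00 in HEP.

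Atp5mc3, which encodes a subunit of the rotating ring, was 0.03 in HAL and 0.07 in HEP. Atp5if1, the inhibitor that restrains ATP hydrolysis by the enzyme when respiration fails, was read through 2 probes at 0.05 and 0.09 in HAL and at 0.10 and 0.00 in HEP. The second of these had all 8 HAL arrays above the Sham mean, with an interval from -0.06 to 0.25.

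**Figure D4:**
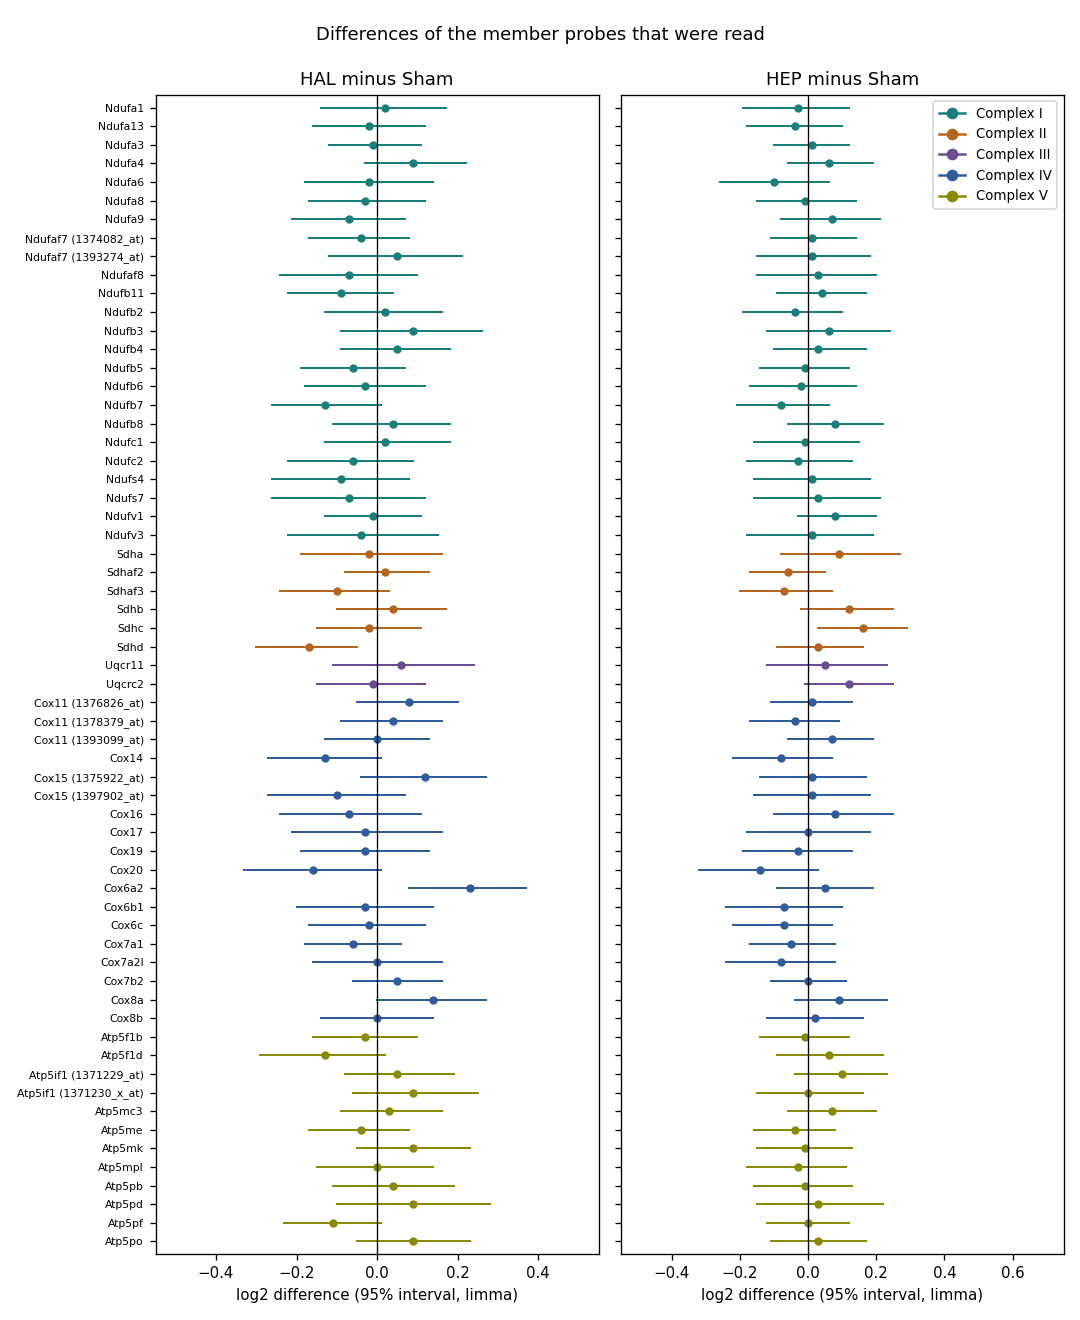
Points are the log2 differences of the 62 read member probes from Sham and lines their 95% intervals from limma (horizontal axis), with HAL at the left, HEP at the right and colours for the 5 complexes. Differences run from -0.17 (Sdhd) to 0.23 (Cox6a2) in HAL and from -0.14 (Cox20) to 0.16 (Sdhc) in HEP, and no adjusted p is below 0.05.

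Removal and devascularisation of the liver were also set against each other directly. In HEP against HAL the median member difference was 0.016, against -0.014 over all probes. The difference was positive in 36 of 62 members, against 5690 of all 13542 probes. The 6 members with an unadjusted p under 0.05 were Sdhd (0.20, 95% interval 0.08 to 0.33), Sdhc (0.18, 0.05 to 0.31), Cox6a2 (-0.18, -0.32 to -0.03), Atp5f1d (0.19, 0.04 to 0.35), Uqcrc2 (0.13, 0.00 to 0.27) and Ndufb11 (0.13, 0.00 to 0.26). Their adjusted p-values in limma lay between 0.432 and 0.674. Atp5f1d and Ndufb11 were named because of these values. For Uqcrc2, 4 of the 8 HEP cells were shortened, against 1 in HAL, and for Sdhd 0 in HEP against 1 in HAL. In complex II, 5 of 6 probes were higher in HEP than in HAL, with a median of 0.096. For Sdhc the reading near 10 gave 0.03 in place of 0.18, and for Sdhb 0.262 in place of 0.08. The interval of the difference lay within 0.25 of zero for 48 of 62 members (77.4%), a smaller share than the 82.2% of all probes.

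Arrays were compared over all members at once. The median deviation of the 62 members on an array ran from -0.10 to 0.08 among Sham arrays, from -0.05 to 0.03 among HAL arrays and from -0.04 to 0.06 among HEP arrays. The Sham arrays were the widest, and held both the lowest and the highest value, so the ranges of HAL and HEP lay inside that of Sham. Over all probes tested the medians ran from -0.05 to 0.02, -0.03 to 0.04 and -0.06 to 0.03 in the same order.

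**Figure D5:**
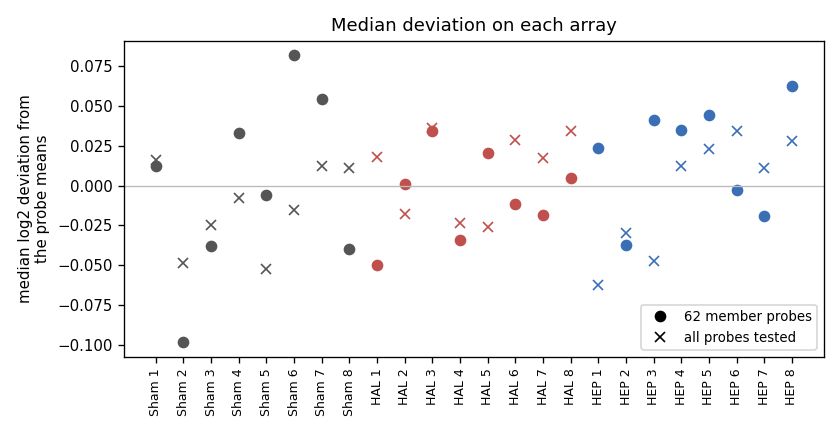
Circles are the median log2 deviation of the 62 member probes on each array and crosses that of all 13542 probes tested (vertical axis), by array and group. Deviations are from each probe's mean over all 24 arrays. Sham arrays span -0.10 to 0.08 for the members, and the HAL and HEP arrays lie within that range.

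Members that were not read include several of the best known. Cox4i1, Cox6a1, Uqcrc1, Uqcrfs1, Ndufs1 and Atp5f1a gave decimals too scattered for the limit of 0.5, as did the hypoxia-linked Cox4i2 and Ndufa4l2. With a limit of 0.35, which read 89 members and called 0 of them where 0.0809% of 19780 probes were called in HAL and 0.147% in HEP, Uqcrc1 was 0.26 in HAL (limma adjusted p = 0.167) and 0.15 in HEP (0.6). At an unadjusted p under 0.05 there were then 6 of 89 members in HAL (6.74%, against 13.3% of all probes) and 1 in HEP (1.12%, against 9.16%). In HEP against HAL 0 of 89 were called, where 0.0101% of all probes were, and 9 had an unadjusted p under 0.05 (10.1%, against 7.29%). Uqcrfs1, the Rieske iron-sulfur protein of complex III, was -0.19 in HAL (limma adjusted p = 0.376) and 0.01 in HEP (0.987). Ndufs1, the largest iron-sulfur subunit of complex I, was -0.09 in HAL (0.733) and 0.13 in HEP (0.733), and Cox6a1, the form of subunit VIa found outside muscle, was 0.005 in HAL and -0.026 in HEP. Cox4i1 and Atp5f1a were too scattered at this limit as well. Cox4i2, which replaces Cox4i1 in some tissues at low oxygen, was -0.09 in HAL and 0.06 in HEP, and Ndufa4l2, a paralogue of Ndufa4 induced by hypoxia, was 0.02 and -0.14.

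Other mitochondrial genes were counted from lists. The shares of all probes beside these counts are, as above, 0.0665% called and 14.1% at an unadjusted p under 0.05 in HAL, and 0.133% and 8.8% in HEP. In limma, 0 of 10 read probes for pyruvate dehydrogenase and the citrate cycle were called in either comparison with Sham (2 at an unadjusted p under 0.05 in HAL, 0 in HEP), and 0 of 6 for respiratory genes that the prefixes miss (1 and 0). Counts were 0 of 3 for regulators of biogenesis (1 and 1) and 0 of 15 for carriers, import and protein quality control (2 and 2). Under the filter within groups, 3 genes of these lists were called. Tfam, which packages and transcribes mitochondrial DNA, was lower by 0.27 in HAL (limma adjusted p = 0.00948, and 0.0705 at the first filter). Higd1a, a small protein tied to complexes III and IV, was higher by 0.31 in HAL (0.0121) and 0.32 in HEP (0.012). Higd1a was not read at the first filter. A probe of the matrix protease Lonp1 was higher by 0.25 in HEP (0.0405, and 0.189 at the first filter). The other Lonp1 probe, at the first filter, read -0.03. The filter within groups called 4.16% of all probes in HAL and 2.19% in HEP, against 0.0665% and 0.133% at the first filter.

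The labelled tissue was checked against markers. All 9 endothelial marker genes with a probe had one at 10 or above, as had 2 of 7 for pericytes, 3 of 5 for smooth muscle and 3 of 7 for astrocytes. None of 11 neuronal, 7 microglial or 5 hepatocyte marker genes had such a probe, and 1 of 5 for oligodendrocytes and 1 of 2 for red cells did. Few marker probes could be read, at most 4 for a cell type, and limma called 0 of them against Sham at the first filter, with 1 (microglial, in HAL) at an unadjusted p under 0.05. Under the filter within groups the oligodendrocyte gene Mobp was called in HEP, at 0.30 (limma adjusted p = 0.0368), from a probe not read at the first filter. Whether the makeup of the vessel preparations moved with the members was not tested. In RNA from such preparations fewer cells of a type and less RNA per cell cannot be told apart.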

How the data were processed

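Labelled RNA from 24 samples of rat cortical microvessels was hybridised to expression arrays. Per the submitters' processing notes, the authors summarised the arrays with RMA, which gives log2 values after background correction and quantile normalisation; the sources used here give no version. The deposited table, as provided here, holds only the decimals of those log2 values, to 10 significant digits and without leading or trailing zeros, and no scanner files were used. The labels name a whole-transcript labelling kit, while the probe identifiers are of the 3′ type, and this was not resolved.

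Decimals were read around a circle as described, each cell within 0.5 of the probe's circular mean, and shortened cells took the candidate nearest to it. Of the cells of read member probes, 20.2% were shortened. Differences were tested with limma 3.58.1 in R 4.3.3 (group means over all 24 arrays, empirical Bayes, Benjamini-Hochberg over 13542 probes, called at 0.05), and the code was tested on simulated data. Probes were named through the platform annotation: 20832 had 1 symbol, 436 several and 9831 none. Of the member probes, 112 of 115 were found in the RefSeq table for GRCr8. Named genes were, per complex and comparison with Sham, the probe of the smallest p, and catalytic subunits and tissue-specific or hypoxia-linked forms whatever their values; other names were chosen after their values were seen. The members, lists and rules were chosen with earlier results of these data known. Alternatives changed the clustering limit, the centre, shortened cells, array centring and weights, the prior, the arrays fitted and the replicate block.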

Additional observations from a re-analysis of the deposited data

Results flagged for a closer look

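Of 63 groups of 8 arrays checked among the named members, 5 held an array far from the others by Dixon's test, and chance alone marks about 1 group in 20. Sdha read -0.42 on Sham array 3, where the other Sham arrays ran from -0.09 to 0.19. Sdhb read -0.29 on the same array, against -0.02 to 0.11, and -0.30 on HAL array 2, against 0.02 to 0.17. Cox6a2 read -0.26 on HEP array 8, against -0.02 to 0.20, and Cox8a read -0.08 on HEP array 7, against 0.07 to 0.19. All values are log2 differences from the probe's Sham mean.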

How the results depend on the processing

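The count of 0 called members in each comparison held under every alternative listed except the centre of each group and the filter within groups. With the decimals centred on each group's own mean, 2 members were called in HAL, 1 in HEP and 2 in HEP against HAL. The filter within groups, added after the data were seen, called 1 member in HAL. Leaving out each array in turn, members called ranged from 0 to 0 in each comparison, the median member difference from -0.030 to 0.009 in HAL, from -0.006 to 0.019 in HEP and from 0.00 to 0.024 in HEP against HAL, and the members with an unadjusted p under 0.05 from 2 to 5, 1 to 2 and 4 to 8. Over all probes, the share at an unadjusted p under 0.05 ran from 11.7% to 14.9%, 7.42% to 10.1% and 6.43% to 8.63% in the same order. The called counts over all probes ranged from 0 to 17 in HAL and from 0 to 46 in HEP. They were 0 without any of 13 arrays in each case. The fit with the replicate number as a block called 0 members in each comparison, and 6, 0 and 0 of all probes. Arrays of the same number correlated by a median of 0.005, from -0.114 to 0.182, with 6 pairs over 0.1. The median for other numbers was -0.001. These values show no general pairing by number, but cannot exclude it for some numbers. Centring each array on its median moved the median member difference to -0.037 in HAL and -0.002 in HEP, and gave 6 probes called higher and 31 lower in HAL, against 5 and 4 in the first fit, and 1 and 7 in HEP, against 9 and 9. Over the other alternatives, all-probe calls ran from 0 to 51 in HAL, from 0 to 29 in HEP and from 0 to 2 in HEP against HAL, against 9, 18 and 0; the centre of each group gave 639, 289 and 99, the filter within groups 429, 226 and 23, and the reading of probes near 10 gave 94, 55 and 0. Without a clustering limit 0 of 115 members were called. The numbers of arrays and the loss of whole units limit what can be seen.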
